A study of Mus musculus with 6 samples.

Results

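The genes described here are 10 genes of the actin cytoskeleton that are usually abundant in T cells, namely Actb, Actg1, Tmsb4x, Pfn1, Cfl1, Arpc1b, Arpc2, Arpc3, Coro1a and Lcp1. They were chosen by symbol, each matched 1 RefSeq transcript accession of the deposited count table, and together they are 10 of its 13177 accessions. The table holds read counts from RNA sequencing of CD4+ T lymphocytes (helper T cells) of the mouse, in 3 libraries collected 8 h after transfection with a synthetic miR-155 oligonucleotide and 3 control libraries labelled as zero hour. Cells were isolated with magnetic beads, and the labels give no strain, sex or age. In the controls, too, the treatment label names the oligonucleotide, the descriptions of the 8 h samples name CD5+ cells where the source label names CD4+ T cells, and no library was collected at 8 h without the oligonucleotide, so that time and exposure cannot be told apart. Whether replicates are separate animals or cultures is not in the labels, and p-values therefore measure only the spread between these libraries, which may be technical. Libraries held between 4564010 and 13675127 counts, with a median of 10 to 30 counts per accession.

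Actin filaments grow from monomers, and their turnover drives the shape, migration and immune synapse of T cells. Thymosin beta 4 (Tmsb4x) holds monomers in reserve, profilin 1 (Pfn1) feeds them to growing filament ends, and cofilin 1 (Cfl1) severs old filaments. The Arp2/3 complex, to which Arpc1b, Arpc2 and Arpc3 contribute subunits, starts branches on existing filaments. Coronin 1A (Coro1a) binds filaments in blood cells, and L-plastin (Lcp1) bundles them. Inherited loss of ARPC1B or CORO1A causes immunodeficiency in humans.

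The name "abundant" held for only some of the genes in these libraries. Actg1, Pfn1, Tmsb4x, Arpc2 and Arpc3 had at least 100 counts in every library, 5 of 10 genes where 3.69% of all accessions did. Actb, Arpc1b and Coro1a had at most 15 counts in every library, 3 of 10 genes where 16.4% of all accessions did. Both limits were set after the counts were seen. With Actb, Arpc1b and Coro1a so low, it could not be settled whether the table holds ordinary read counts per gene, and every level below is the deposited value and no measure of transcript abundance checked by other means.

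Because the cells received miR-155, the 3' UTRs of the 10 genes were searched for matches to its seed, which pairs with target transcripts. The mature strand comes from chromosome 16 (RefSeq, GRCm38.p6, chr16:84714143-84714165, plus strand). It is shown with the seed, bases 2 to 8, in capitals, followed by the 2 sites with the shorter match to bases 2 to 7, also in capitals, that the longest 3' UTRs in GENCODE M21 (GRCm38) held.
mmu-miR-155-5p: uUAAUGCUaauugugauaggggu
Arpc1b site, chr5:145128971-145129000, plus strand: gctagcaacaggGCATTAgggcgttgttaa
Lcp1 site, chr14:75230485-75230514, plus strand: aagactccctctGCATTAgtgaaaggctta
The full match AGCATTA, read on the transcript strand, was in 0 of the 10 UTRs, which were 108 to 1840 bases long. It was in 8.62% of the 12550 genes of the table with an annotated 3' UTR, whose median length was 1119 bases. The shorter match GCATTA, which every full match contains, was in 2 of the 10 UTRs and in 20.4% of all. The Arpc1b site lies beyond the end of the RefSeq gene at 145128186, in a longer 3' end that GENCODE annotates. The Lcp1 site lies within the RefSeq gene, but beyond 75229796, where the GENCODE transcript matched to its counts ends. It is in the 3' UTR of another Lcp1 transcript. A match is a stretch of letters and no evidence of binding.

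The cytoplasmic actins, the main building blocks of the filaments, stood at very different levels. Beta actin (Actb, NM_007393, chromosome 5, 142903115 to 142907976, GRCm38.p6) had 4, 5 and 3 counts in 8 h libraries 1 to 3, against 4, 1 and 3 counts in controls 1 to 3. Gamma actin (Actg1, NM_009609, chromosome 11, 120345687 to 120348495) had 166903, 28176 and 1576 counts in 8 h libraries 1 to 3, against 537, 14870 and 535274 counts in controls 1 to 3. Actb thus sat near the floor of the table in every library, while Actg1 ranged from the most abundant of all accessions in control 3 to rank 915 in control 1. The 12 Actb counts of the 8 h libraries have an exact 95% Poisson interval of 6.20 to 20.96, and the 8 counts of the controls one of 3.45 to 15.8, which cover counting error only. Per kilobase of transcript, the Actg1 level was 517 to 41042 times that of Actb in 8 h libraries and 132 to 175500 times in controls. The coding sequences were 88.7% identical over 1128 bases, and 30 of 1079 windows of 50 bases, the read length, were the same in both. The first 50 coding bases of each gene show this, with the 9 bases at which they differ in capitals (GENCODE M21, GRCm38, both on the minus strand).
Actb, chr5:142905637-142905686: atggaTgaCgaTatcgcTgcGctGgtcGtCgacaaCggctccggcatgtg
Actg1, chr11:120348042-120348091: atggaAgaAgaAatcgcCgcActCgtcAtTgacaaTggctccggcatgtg
Actg1 averaged 7288 ± 10658 CPM at 8 h and 15616 ± 24206 CPM in controls (SD, n = 3 each; CPM are counts scaled to an equal total in each library). At 8 h over control its log2 fold change of -1.24 ± 2.51 (SE) had a Benjamini-Hochberg adjusted p of 0.923 (edgeR, quasi-likelihood). Without control 3 that log2 fold change was 2.26, so 1 library set its direction, and it was -3.88 without 8 h library 1. Among the 1961 tested accessions with a mean of at least 50 CPM, 3.72% had controls that differed by as large a factor as those of Actg1, 523 between highest and lowest.

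**Figure D1:**
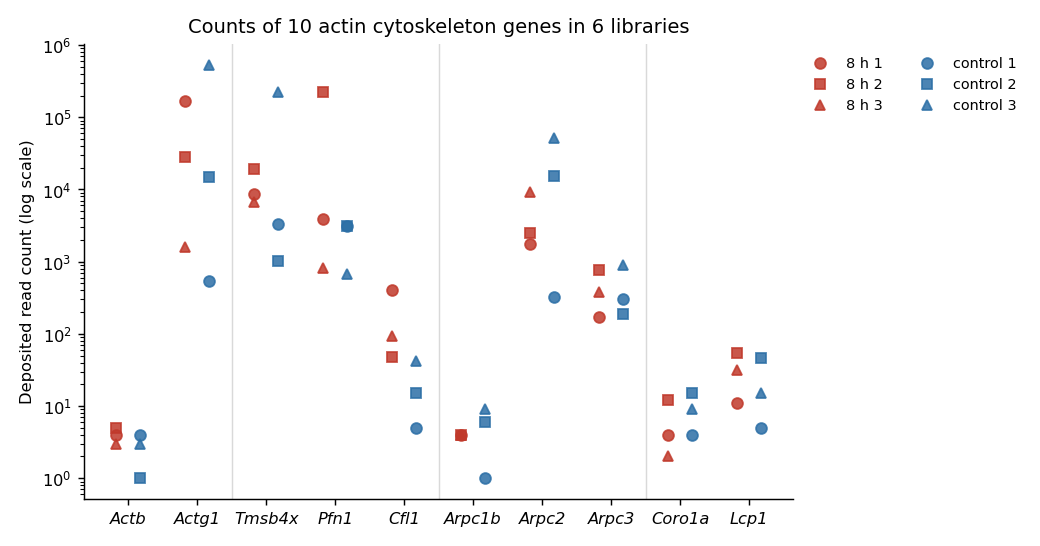
Deposited read counts (log axis) of the 10 genes in 3 libraries collected at 8 h (red, left in each pair) and 3 controls (blue, right), with the replicate number as marker shape and no averaging. Actb, Arpc1b and Coro1a stay between 1 and 15 counts in all libraries, while Actg1 spans 537 to 535274.

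Among the genes of monomer supply, Tmsb4x and Pfn1 each had 1 library far above the other 5. Tmsb4x (NM_021278, chromosome X, 167207093 to 167213479) had 8622, 18902 and 6625 counts at 8 h, against 3277, 1013 and 222029 counts in controls. In CPM its 8 h libraries lay close together, at 1010, 1382 and 1061 CPM, whereas its controls, at 508, 222 and 18046 CPM, lay on both sides of them. Only 0.969% of the 1961 accessions had 8 h libraries as close together as those of Tmsb4x, whose highest was 1.37 times the lowest. This spread and that of the Actg1 controls were the extremes for Actg1, Tmsb4x, Pfn1 and Arpc2. For their other spreads, the share of accessions at least as wide ran from 11.1% (Pfn1 at 8 h) to 72.7% (Arpc2 at 8 h). For Tmsb4x edgeR gave a log2 fold change of -2.63 ± 2.49 (SE; adjusted p = 0.788), and 1.52 once control 3 was left out. Pfn1 (NM_011072, chromosome 11, 70651844 to 70656799) had 3867, 223487 and 816 counts at 8 h, against 3076, 3093 and 683 counts in controls. Only 8 h library 2 stood above the rest, and the groups overlapped. For Pfn1 edgeR gave a log2 fold change of 3.83 ± 2.59 (SE; adjusted p = 0.685), and -0.52 once 8 h library 2 was left out.

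The turnover factor Cfl1 (NM_007687, chromosome 19, 5490455 to 5494031) was low to moderate in level, with 1 high 8 h library. It had 407, 48 and 94 counts at 8 h, against 5, 15 and 42 counts in controls. In CPM these were 47.7, 3.51 and 15.1 at 8 h, against 0.775, 3.29 and 3.41 in controls, so that the lowest 8 h library lay just above the highest control. On the TMM-scaled library sizes that the test used, these 2 libraries stood at 3.61 CPM (8 h library 2) and 3.83 CPM (control 3), so that the groups overlapped. Their counts, 48 and 42, have exact 95% Poisson intervals of 35.4 to 63.6 and 30.3 to 56.8. By edgeR the log2 fold change of Cfl1 was 3.06 ± 1.82 (SE; adjusted p = 0.642) and ran from 1.72 without 8 h library 1 to 3.57 without 8 h library 2. DESeq2's Wald test gave Cfl1 an adjusted p of 0.121 and an unadjusted p of 0.0130. By column-sum CPM, groups did not overlap for 1 of the 7 tested genes, Cfl1, beside 10.9% of all tested accessions (6.23% higher and 4.65% lower in every 8 h library). By TMM-scaled CPM they did not overlap for 0 of the 7 genes, beside 10.8% of all tested. In the same libraries, the summed level of 8 markers of cytotoxic and natural killer cells, all matched and none at 0 throughout, was 258 to 415 CPM at 8 h and 1455 to 4187 CPM in controls. Gzmb, Gzma and Nkg7 made up most of it, and of the 8 markers only Gzma and Klrb1c had all 8 h libraries below all controls, while the means of Ncr1 (6.06 CPM at 8 h and 3.72 CPM in controls) and Eomes (11.9 CPM at 8 h and 7.88 CPM in controls) went the other way. That of 7 matched erythroid and platelet markers was 7.05 to 19.7 CPM at 8 h and 26.1 to 136 CPM in controls, and the part of either in the Cfl1 values was not tested. In bulk RNA, fewer cells of a type and less RNA per cell cannot be told apart.

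The 3 subunits of the Arp2/3 complex stood at levels far apart from one another. Arpc2 (NM_029711, chromosome 1, 74236490 to 74268209), a core subunit that contacts the mother filament, had 1729, 2505 and 9213 counts at 8 h, against 328, 15342 and 50954 counts in controls. Arpc3 (NM_019824, chromosome 5, 122391878 to 122406181), a small peripheral subunit, had 169, 762 and 374 counts at 8 h, against 308, 189 and 909 counts in controls. Arpc1b (NM_023142, chromosome 5, 145114256 to 145128186), the form of the ARPC1 subunit that prevails in blood cells, had 4, 4 and 4 counts at 8 h, against 1, 6 and 9 counts in controls. Arpc2 was thus high in 8 h library 3 and controls 2 and 3, and Arpc1b was near 0 everywhere. Arpc3 lay between 19.8 CPM (8 h library 1) and 73.9 CPM (control 3). Per kilobase, the ratio of the Arpc2 level to that of Arpc3 was 6.55, 2.10 and 15.8 at 8 h, against 0.682, 52.0 and 35.9 in controls. The order of these subunits per kilobase was therefore not the same in all libraries, since Arpc3 exceeded Arpc2 in control 1 only. In counts Arpc2 exceeded Arpc3 in every library, though only by 328 to 308 in control 1. The log2 fold change was -2.17 ± 2.32 (SE) for Arpc2 and -0.42 ± 1.73 (SE) for Arpc3, with edgeR adjusted p values of 0.821 and 0.965. Arpc3 averaged 45.1 ± 22.0 CPM at 8 h and 54.3 ± 17.2 CPM in controls (SD, n = 3 each), the narrowest spread among the tested genes over all 6 libraries. Arpc2 averaged 620 ± 741 CPM at 8 h and 2518 ± 2172 CPM in controls (SD, n = 3 each), and its log2 fold change was -3.72 without 8 h library 3 and -1.43 without control 3. For Arpc3 that value was -0.075 without 8 h library 1 and -0.080 without control 3, and lay from -0.66 to -0.47 without each other library.

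Other genes of the complex, 6 of 7 of them matched, were spread just as widely. Actr2, which encodes the Arp2 subunit, had 284, 10315 and 115 counts at 8 h, against 39804, 56 and 123223 counts in controls. Actr3, which encodes Arp3, the partner of Arp2 at the start of a branch, had 16, 16 and 10 counts at 8 h, against 3, 4 and 3 counts in controls. Arpc1a, the other form of the ARPC1 subunit, had 29, 217 and 324 counts at 8 h, against 374, 54 and 1551 counts in controls, more than Arpc1b in each library. Per kilobase, Arpc5 averaged 475 ± 385 CPM at 8 h and 1014 ± 707 CPM in controls, and Arpc4 averaged 4.66 ± 2.30 CPM at 8 h and 4.87 ± 1.99 CPM in controls (SD, n = 3 each). These genes were named after their values were seen. None of the 5 tested passed the edgeR threshold, which 0% of all 8308 tested passed. The lowest edgeR adjusted p of the 5 was 0.643, and Actr3 had too few counts to be tested.

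**Figure D2:**
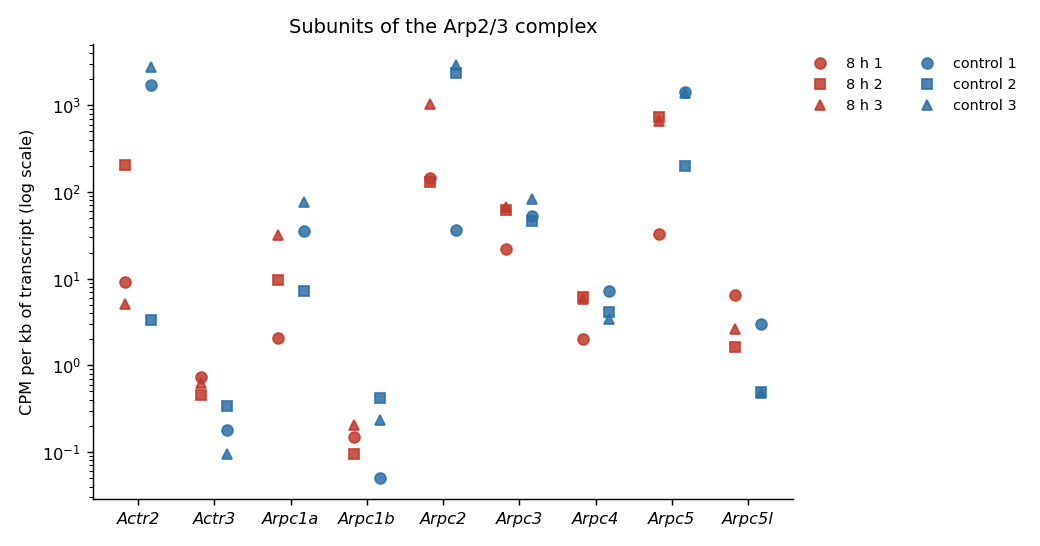
Levels of 9 genes of the Arp2/3 complex in CPM per kilobase of transcript (log axis), 8 h libraries in red (left) and controls in blue (right), 1 point per library. Arpc1b and Actr3 lie below 1 in every library, while Arpc2 reaches 2950 and Actr2 2758 in control 3.

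The filament-binding proteins of blood cells were at low counts. Coro1a (NM_009898, chromosome 7, 126699774 to 126704816) had 4, 12 and 2 counts at 8 h, against 4, 15 and 9 counts in controls. Lcp1 (NM_001247984, chromosome 14, 75131105 to 75230842) had 11, 54 and 32 counts at 8 h, against 5, 47 and 15 counts in controls. The groups of both genes overlapped, and Coro1a was too low for the test. For Lcp1 edgeR gave a log2 fold change of -0.21 ± 1.45 (SE; adjusted p = 0.981), which ran from -0.67 without control 1 to 0.18 without 8 h library 1 and 1.54 without control 2. Its 8 h libraries averaged 3.45 ± 1.97 CPM and its controls 4.10 ± 5.37 CPM (SD, n = 3 each). RefSeq lists 7 transcripts for Lcp1, 4 for Coro1a, 3 for Arpc2, and 2 each for Actb, Actg1, Pfn1 and Tmsb4x. The table held 1 of them for each gene, and reads of the others were not analysed here.

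Set in order of their level per kilobase, the 10 genes fell into the same upper and lower 5 in each of the 6 libraries with GENCODE transcript lengths. Tmsb4x, Actg1, Pfn1, Arpc2 and Arpc3 took places 1 to 5, and Cfl1, Lcp1, Coro1a, Actb and Arpc1b took places 6 to 10. With only the transcript bases inside the RefSeq gene as length, 1184 in place of 2354 for Cfl1 and 1551 in place of 3105 for Arpc1b, Cfl1 at 40.3 CPM per kilobase stood above Arpc3 at 22.0 in 8 h library 1. The upper 5 were then the same in the other 5 libraries only. Within the upper group the order was not stable. Tmsb4x led in 8 h library 3 and in controls 1 and 3, Actg1 in 8 h library 1, Pfn1 in 8 h library 2 and Arpc2 in control 2. Actg1, for example, had 19.0, 0.0556 and 0.852 times the level of Pfn1 per kilobase at 8 h, against 0.0770, 2.12 and 346 times in controls. Neighbours in this upper order therefore did not differ beyond their spread between libraries. In the lower group the places also overlapped, with Cfl1 (GENCODE lengths) in place 6 to 8, Lcp1 in 6 to 9, Coro1a in 6 to 10, Actb in 8 to 10 and Arpc1b in 9 to 10.

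The 10 genes together took 2.13%, 2.003% and 0.300% of all counts in 8 h libraries 1 to 3, against 0.117%, 0.758% and 6.58% in controls 1 to 3. Control 3 held the highest share and control 1 the lowest, so the controls enclosed the 8 h libraries. The means were 1.48 ± 1.02% at 8 h and 2.49 ± 3.56% in controls (SD, n = 3 each), a difference within the spread. A single gene took between 43.4% (Tmsb4x in control 1) and 91.8% (Actg1 in 8 h library 1) of the counts of the 10 genes.

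**Figure D3:**
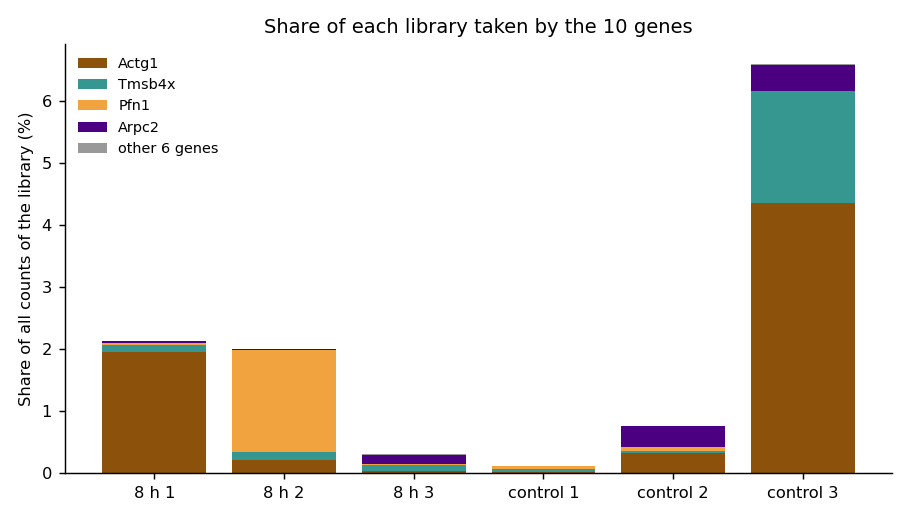
Share of all counts of a library taken by the 10 genes, in percent, 8 h libraries on the left and controls on the right, stacked by gene. The bar of control 3 reaches 6.58% and that of control 1 reaches 0.117%, and Actg1, Tmsb4x, Pfn1 and Arpc2 together fill nearly all of each bar.

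Between 8 h and control libraries, 0 of the 10 genes passed the test. The filter on low counts kept 7 of the 10 genes, where it kept 63% of all accessions, and Actb, Arpc1b and Coro1a were not tested. Of the 7 tested genes 0 passed edgeR's quasi-likelihood test at an adjusted p under 0.05, as did 0% of the 8308 accessions tested. At an unadjusted p under 0.05 it gave 0 of the 7 genes and 8.53% of all tested. Its newer form gave 1 of the 7 at that level, Cfl1, with an unadjusted p of 0.0398 and an adjusted p of 0.412. DESeq2 gave an adjusted p to 5 of the 7, the others, Pfn1 and Tmsb4x, having been set aside as outliers, and called 0 of the 5 where it called 6.06% of the accessions with an adjusted p. At an unadjusted p under 0.05 DESeq2 gave 1 of them, Cfl1. The log2 fold change was above 0 for 2 of the 7 genes, Cfl1 and Pfn1, and for 51.3% of all tested, and the medians were -0.42 for the 7 genes and 0.06 for all tested. The biological coefficient of variation, the spread between replicates beyond counting, was 1.11 (Lcp1) to 1.40 (Actg1) for the 7 genes and had a median of 1.25 over all tested, so the SD between replicates typically exceeded their mean. Counting error is small beside this for Actg1, Tmsb4x, Pfn1 and Arpc2, whose lowest count was 328. By limma-voom the log2 fold changes were -0.14 for Tmsb4x, -0.085 for Actg1 and 1.61 for Pfn1, nearer 0 than by edgeR.

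**Figure D4:**
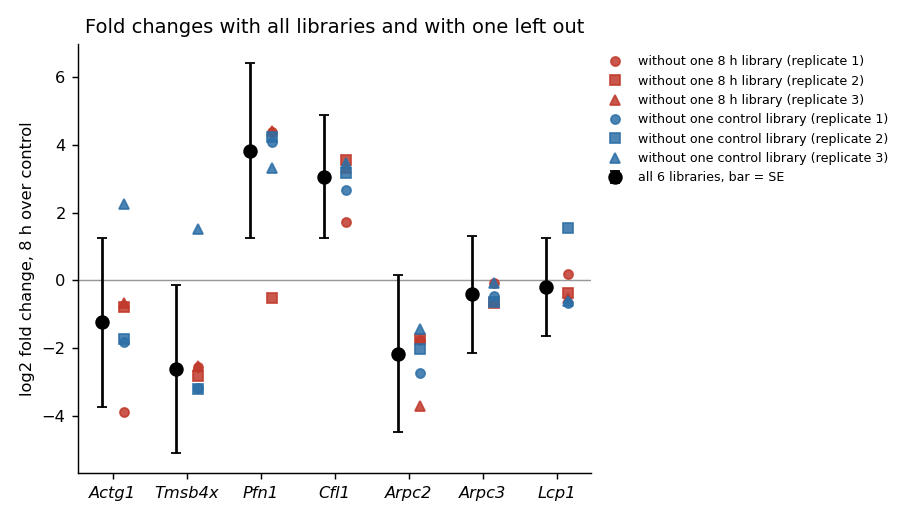
Log2 fold changes of the 7 tested genes, 8 h over control: black points with all 6 libraries (bars, SE), red points without 1 of the 8 h libraries, blue points without 1 of the controls. The points of Cfl1 stay above 0 and those of Arpc2 and Arpc3 below 0, while those of Actg1, Tmsb4x, Pfn1 and Lcp1 lie on both sides of 0.

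Sequence shared with other genes was measured because reads that match several places, or overlapping genes, can be counted in different ways. Which way was used is not stated in the labels. For each gene, every stretch of 50 bases of its transcript was looked for on both strands of all other annotated genes' transcripts in GENCODE M21. A stretch also counted as shared where another gene overlaps the same bases of the genome. Such overlap was not told apart from copies elsewhere, so a shared stretch need not match several places. None of the stretches of Pfn1, Tmsb4x, Arpc3 and Coro1a occurred in another gene's transcripts, and of those of Arpc2 0.221% did. For Lcp1 11.4% did, for Actb 14.2%, for Cfl1 23.0%, for Arpc1b 42.2% and for Actg1 56.7%. Within the RefSeq gene alone the share was 19.8% for Cfl1, 23.6% for Arpc1b and 58.1% for Actg1. The shared stretches there numbered 225 for Cfl1, against 530 over its whole transcript, and 355 for Arpc1b, against 1290. The pseudogene Gm12715 held 973 of the 1079 shared stretches of Actg1, and the gene Pdap1 held 882 of the 1290 of Arpc1b. Actg1 had the most shared sequence and up to 535274 counts, and Arpc1b had the next most and at most 9 counts. Of the genes with none, Pfn1 had up to 223487 counts, Tmsb4x up to 222029, Arpc3 up to 909 and Coro1a at most 15. Copies outside annotated transcripts were not searched, and the part of shared sequence in the counts was not tested.

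**Figure D5:**
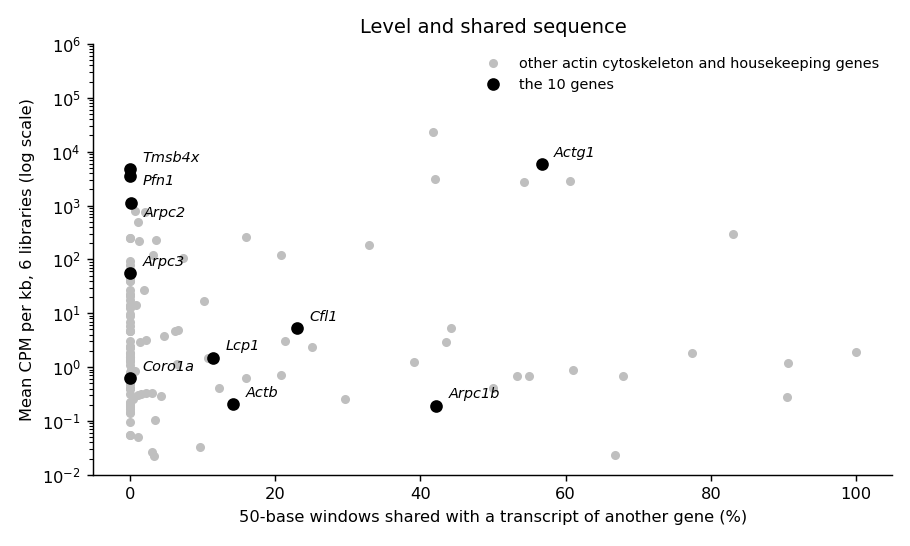
Mean level over the 6 libraries (CPM per kilobase, log axis) against the percent of 50-base stretches of a transcript that also occur in a transcript of another gene, for the 10 genes (black) and other actin cytoskeleton and housekeeping genes (grey). Tmsb4x at 4824 and Coro1a at 0.633 both lie at 0% shared, and Actg1 at 5867 lies at 56.7%.

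Other genes of the actin cytoskeleton gave no edgeR call either, as no accession tested did. Of 120 further symbols in 8 lists, 106 were matched and 75 tested. Of all 8308 accessions tested 0% passed edgeR's threshold, and of these 75 genes 0 did in either direction. Their lowest adjusted p was 0.540, 5 of the 75 had an unadjusted p under 0.05 where 8.53% of all tested did, and 35 had values above and 40 below 0 on the log2 fold change scale, with a median of -0.18. At least 100 counts in every library were found for 12 of the 106 genes. Groups did not overlap for 8% of the 75, 3 higher and 3 lower at 8 h, beside 10.9% of all tested, and by TMM-scaled CPM for 8 of them, 3 higher and 5 lower. The list medians ran from -1.30 for the other Arp2/3 subunits (1 above and 4 below 0) to 0.31 for bundling, crosslinking and capping genes (8 above and 8 below 0). Genes of nucleation promoters and formins had 6 above and 7 below 0 and a median of -0.14, and those of monomer binding and turnover had 5 above and 3 below and a median of 0.06. Membrane and integrin linkers had 4 above and 3 below with a median of 0.07, and myosins and tropomyosins 3 above and 4 below with -0.47. The list of other actins, which also held the actin-like gene Actl6a (-0.26), had 1 above and 4 below with a median of -0.89. Of 13 matched housekeeping genes 10 were tested and 0 passed, with 4 above and 6 below 0, a median of -0.71 and 3 lower in all 8 h libraries, as 4.65% of all tested were.

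Levels of other common transcripts give the scale for the 10 genes. Gapdh, a glycolytic enzyme often used as a standard, had 1, 11 and 2 counts at 8 h, against 2, 2 and 2 counts in controls. B2m, the light chain of MHC class I, had 10, 14 and 7 counts at 8 h, against 148, 42 and 123 counts in controls, and Eef1a1, an elongation factor, had 6221, 796 and 577 counts at 8 h, against 37566, 62414 and 131367 counts in controls. Gapdh was thus as low as Actb, and B2m and Eef1a1 had all 8 h libraries below all controls without passing the test (edgeR adjusted p = 0.544 and 0.618). Of the T cell markers, Cd3e had 707, 4428 and 256 counts at 8 h, against 877, 704 and 11475 counts in controls. Cd5 had 5716, 7204 and 27651 counts at 8 h, against 14876, 8908 and 3020 counts in controls, and Lck, the kinase of the T cell receptor, had 14436, 29948 and 367 counts at 8 h, against 171, 226 and 162085 counts in controls. All 12 T cell markers were matched, with a summed level of 6283 to 26511 CPM at 8 h and 3031 to 21225 CPM in controls, but Cd4 itself had at most 10 counts in any library. Markers of CD8 T cells summed to 12.7 to 60.6 CPM at 8 h and 8.33 to 34.2 CPM in controls. Those of B cells summed to 51.3 to 104 CPM at 8 h and 23.7 to 106 CPM in controls, those of myeloid cells to 26.4 to 43.2 CPM at 8 h and 16.7 to 73.7 CPM in controls, and those of fibroblasts and muscle to 48.0 to 159 CPM at 8 h and 5.93 to 161 CPM in controls. Of the 6 B cell markers, 1 had all 8 h libraries above all controls, as 6.23% of all tested accessions did. This was Ms4a1, at 38.0, 42.0 and 33.2 CPM at 8 h, against 3.25, 3.29 and 2.44 CPM in controls. By their means, 3 of the 6 were higher and 3 lower at 8 h, and the lowest edgeR adjusted p of the 5 tested was 0.609.

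For each tested gene, the accession most like it was sought among those with a mean of at least 50 CPM, by Pearson's r of log2 CPM over the 6 libraries. Cers5 was most like Actg1 (Pearson's r = 0.994, Spearman's rank correlation = 1), Iqcf3 most like Tmsb4x (r = 0.973, Spearman = 0.829), Slc25a3 most like Pfn1 (r = 0.979, Spearman = 0.943) and Mcrip2 most like Cfl1 (r = 0.974, Spearman = 0.943). For Arpc2 it was Fam53c (r = 0.974), for Arpc3 it was Cd84 (r = 0.994) and for Lcp1 it was Emg1 (r = 0.976), each with a Spearman correlation of 0.943. Each is the highest of at least 1928 candidates and carries no test. None of the 7 was another of the 10 genes, but only Actg1, Pfn1, Tmsb4x and Arpc2 reached that mean and could have been found. The likeness can rest on 1 library, as for Iqcf3, which had 41, 29 and 42 counts at 8 h, against 10, 0 and 15677 counts in controls.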

How the data were processed

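Read counts, whole numbers per RefSeq transcript accession, were used as deposited by the authors, in 1 table. Libraries were made with an Illumina TruSeq kit, per the labels' protocols. The submitters' processing notes name Bowtie, R 3.4.2 and the build GRCm38 without their roles. Not given in the sources used here were the counting program, any row filter, the use of strand and how multiply matching reads were treated, so counts of genes with copies, overlapping neighbours or antisense partners are uncertain. Actb, Gapdh, Arpc1b and Coro1a had so few counts that it could not be settled whether rows hold ordinary counts per gene. Columns were matched by title, with 0 left over.

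Accessions were named through the RefSeq gene table of GRCm38.p6 (12827 matched, 350 not). CPM used the column sum, and CPM per kilobase used the matched GENCODE M21 transcript; bases within the RefSeq gene and TMM-scaled CPM were alternatives chosen after seeing the data. The comparison of groups used edgeR 4.0.16 and R 4.3.3 (TMM scaling, filterByExpr with the groups, robust quasi-likelihood F test in its default form, two-sided, Benjamini-Hochberg over 8308 accessions). SE is the size of the log2 fold change divided by the root of its F statistic. The script was also run on simulated counts, and how many planted changes it recovered is not given here. Alternatives were upper-quartile and RLE scaling, a replicate block, no filter, DESeq2 1.42.0, the newer quasi-likelihood form, voom of limma 3.58.1 and leaving out each library. The genes and lists were chosen with earlier results of these data known. Genes were named by a rule: the 10 genes, up to 4 called genes per list (none was called), the accession most like each tested gene, and Gapdh, B2m, Eef1a1, Cd3e, Cd5 and Lck. Others were named after their values were seen. The result of 1 of the 8 gene lists is not reported here by itself.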

Additional observations from a re-analysis of the deposited data

How the results depend on the processing

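No tested gene of the 10 passed the threshold under any of the 13 alternatives, with edgeR, limma-voom or DESeq2. Of all accessions, 0 passed with the replicate block, both other scalings, no filter, the newer quasi-likelihood form, limma-voom (400 at an unadjusted p under 0.05) and without each library (0 to 0), whereas DESeq2 called 399. The log2 fold changes of Cfl1, Arpc2 and Arpc3 kept their sign under all 13. Without each library they ran from 1.72 to 3.57 for Cfl1, from -3.72 to -1.43 for Arpc2 and from -0.66 to -0.075 for Arpc3. They turned sign without 1 library for Actg1 (-3.88 to 2.26), Pfn1 (-0.52 to 4.40), Tmsb4x (-3.20 to 1.52) and Lcp1 (-0.67 to 1.54). With the replicate number as a block the value was 0.20 for Tmsb4x and 0.36 for Lcp1, and limma-voom gave 0.43 for Lcp1; the cause was not tested. Without a change of sign, limma-voom gave -0.14 for Tmsb4x, -0.085 for Actg1, 1.61 for Pfn1 and -1.23 for Arpc2, and the block gave 1.60 for Pfn1 and -0.46 for Actg1; other scalings, no filter and the newer form moved no value of the 7 genes by over 1.5 times. Same-numbered libraries had residual correlations of -0.0107, 0.0151 and -0.0039. With so few libraries and so wide a spread, these values cannot settle whether same-numbered libraries share an animal or a culture. The difference in the share of counts taken by the 10 genes, 8 h minus control, was -1.01 percentage points, and ran from -2.19 to 1.04 without each library. It was -1.23 with TMM-scaled library sizes and -0.18 without Actg1. The lowest counts, 1 to 15 for Actb, Arpc1b and Coro1a, limit what could be detected for these genes.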
